A study of Mus musculus with 8 samples.

Results

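The comparison here sets T follicular helper (Tfh) cells of the Peyer's patch against those of the spleen, within the cells that carry a record of a Th17 past. It rests on 4 of the 8 bulk RNA-seq libraries of the series, those of ZsGreen+ cells, 2 from each tissue, and they were chosen by their labels and not by any measured value. The mice were K/BxN, a strain that develops spontaneous autoimmune arthritis, and all of them, controls included, carried a Th17 fate-mapping reporter by which a cell that has passed through the Th17 state stays marked with the fluorescent protein ZsGreen. The labels give neither the driver of the reporter nor the age, sex or treatment of the animals. CD4+ T cells were enriched from each tissue by depleting other cells and were then sorted as TCRβ+, CD25-negative, CXCR5+ and PD-1+. The ZsGreen+ fraction of this gate is the subject here, and the ZsGreen− fraction of the same 2 tissues, also 2 libraries each, serves for comparison and enters the shared model, where it adds to the estimates of spread and of experiment behind every p-value. Replicate 1 of every group belongs to experiment 1 and replicate 2 to experiment 2, and libraries are called Peyer's patch 1, Peyer's patch 2, spleen 1 and spleen 2 accordingly.

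Tfh cells are the CD4+ T cells that enter B cell follicles, guided by the chemokine receptor CXCR5, and help B cells in germinal centres, a state that depends on the transcription factor BCL6. Th17 cells are known by the cytokines IL-17A, IL-17F and IL-22, and their effector state is sustained by IL-23. Peyer's patches are the organised lymphoid tissue of the small intestine, where germinal centres are active without infection or immunisation and help B cells switch to IgA, whereas the spleen samples the blood and holds follicles with few germinal centres unless an immune response is under way.

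Total estimated counts were 14403458 and 13787974 in the Peyer's patch ZsGreen+ libraries and 15323743 and 14298133 in those of spleen, and 10009823 to 15323743 over all 8 libraries. Levels are given as CPM, counts scaled to a common library total by the TMM method, always in the order experiment 1 and experiment 2, and they do not account for gene length, so they are compared between libraries and not between genes. The first principal component of log2 CPM separated the experiments (66.4% of the variance) and the second separated the tissues (14.7%), so the tissues were compared within each experiment. Mitochondrial genes took 4.76% and 4.55% of the counts in Peyer's patch and 2.81% and 3.19% in spleen. This difference in a measure of RNA quality moves with the tissue, and its part in the results was not tested. Whether the replicates came from separate animals is not recorded in the labels, so the p-values reflect only how far these samples scatter, a scatter that may be technical. In bulk RNA, fewer cells of a type and less RNA per cell cannot be told apart.

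The transcriptome of ZsGreen+ Tfh cells differed widely between the tissues. Of 14418 genes tested, 1828 differed between Peyer's patch and spleen at an edgeR adjusted p under 0.05, which is 12.7% of them. Among them, 794 genes (5.51%) were higher in Peyer's patch and 1034 (7.17%) were lower. Both experiments gave the same direction for 1826 of the 1828, against 10265 of all 14418 genes tested. The called genes were selected on these same libraries, which favours such agreement, so it is not a replication. The median absolute log2 fold change of the called genes was 1.12. A fold of at least 4, a log2 fold change of 2 or more in size, was reached by 136 genes on the higher side and 233 on the lower side. The levels of the tissues did not overlap for 982 of the called genes (53.7%), against 20.7% of all genes tested. The calls thinned when a ZsGreen+ library was left out, which leaves a lone sample assumed to vary like the other groups. The counts were 305 higher and 558 lower without Peyer's patch 1, 514 and 791 without Peyer's patch 2, 403 and 648 without spleen 1, and 327 and 591 without spleen 2. Without the experiment as a term, which removes the pairing of the libraries, edgeR called no gene, and 568 had an unadjusted p under 0.05. A permutation of 2 libraries against 2 cannot give a p below 0.333, so each test here is that of the model fitted across all genes.

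Genes are named below by rule: the 12 largest and 12 smallest log2 fold changes at a mean of at least 5 CPM, and up to 4 called members of each gene list by smallest p. Counts of list members called stand against the 5.51% of all genes called higher and the 7.17% called lower. Lists share members, so their counts are not separate results. Ccr6 stands in the Th17, gut-homing and chemokine lists, and Il17a, Il17f and Csf2 stand in the Th17 and the cytokine lists. Other list members were picked for their known roles after their values were seen, and those that did not pass are given by their values.

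**Figure D1:**
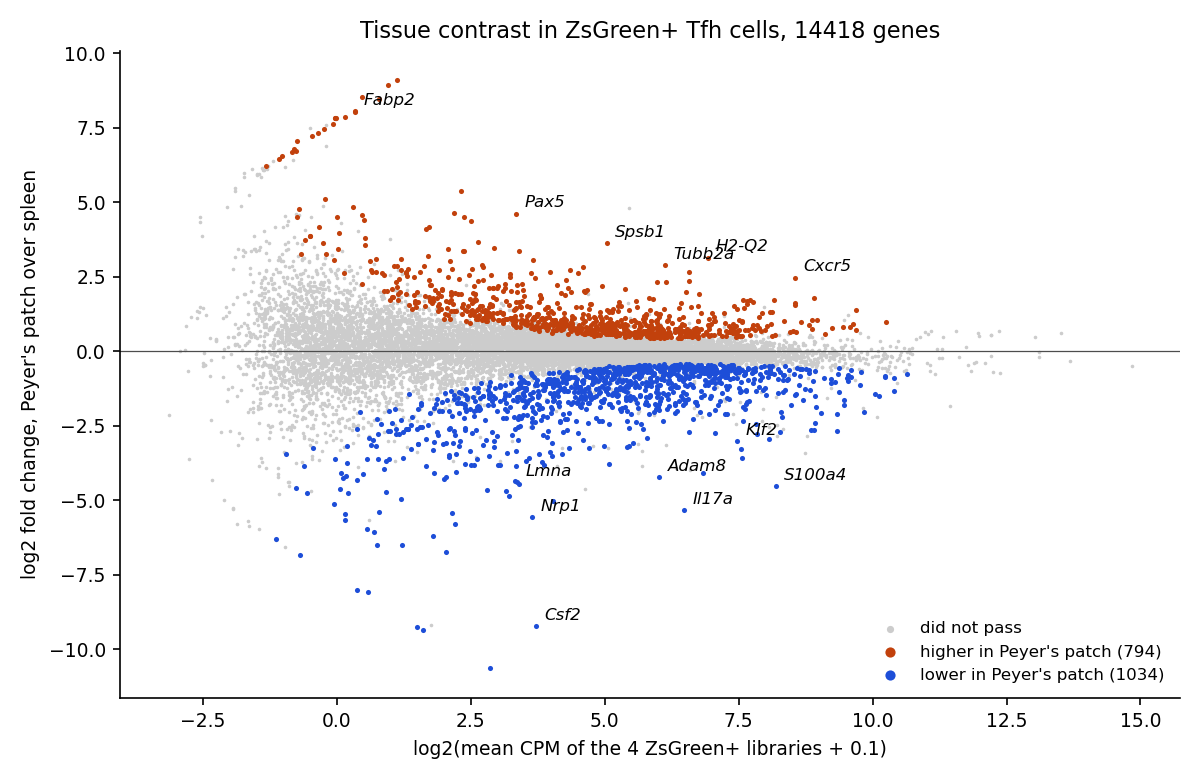
Fold change against mean level for the 14418 genes tested in ZsGreen+ Tfh cells. The x axis is the log2 of the mean CPM of the 4 libraries plus 0.1, the y axis is the fitted log2 fold change of Peyer's patch over spleen, and each point is a gene. Coloured points passed an edgeR adjusted p of 0.05 (794 above 0, 1034 below 0). Cxcr5, Spsb1, H2-Q2 and Tubb2a lead the abundant genes on the upper side, and Csf2, S100a4, Nrp1 and Il17a are among the lowest.

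The genes with the largest rise in Peyer's patch, among those with a mean of at least 5 CPM, were led in evidence by Spsb1 (ENSMUSG00000039911, chr4:149980740-150039500 in mm39), which encodes a SOCS-box adaptor of a ubiquitin ligase. Spsb1 read 69.7 and 51.3 CPM in Peyer's patch against 5.59 and 4.11 CPM in spleen, a 12.4-fold difference (log2 fold change 3.63, SE 0.17, edgeR adjusted p = 1.15e-06). H2-Q2, a non-classical MHC class I gene, read 181 and 255 CPM in Peyer's patch against 21.4 and 27.3 CPM in spleen (log2 fold change 3.14, SE 0.23, edgeR adjusted p = 4.0e-05). Each of these genes was higher in both Peyer's patch libraries than in either spleen library. H2-Q2 belongs to a family of near-identical genes, so its reads could be split between copies and its level is uncertain. The β-tubulin gene Tubb2a read 78.9 and 164 CPM in Peyer's patch against 8.04 and 27.5 CPM in spleen (log2 fold change 2.89, SE 0.20, edgeR adjusted p = 1.35e-05). Cpeb1, an RNA-binding regulator of translation, read 10.9 and 27.3 CPM in Peyer's patch against 1.12 and 2.57 CPM in spleen (log2 fold change 3.36, SE 0.27, edgeR adjusted p = 2.27e-05). Osbpl6, an oxysterol-binding protein relative, read 11.8 and 7.73 CPM in Peyer's patch against 0.426 and 0.429 CPM in spleen (log2 fold change 4.52, SE 0.35, edgeR adjusted p = 2.27e-05).

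Others of the 12 were also higher in Peyer's patch within each experiment. Hpgds, the prostaglandin D synthase of haematopoietic cells, read 12.6 and 10.1 CPM in Peyer's patch against 0.532 and 1.37 CPM in spleen (log2 fold change 3.68, SE 0.41). Pgam2, the muscle form of phosphoglycerate mutase, read 5.85 and 15.6 CPM in Peyer's patch against 0.586 and 0.257 CPM in spleen (log2 fold change 4.38, SE 0.53). Ntn1, the guidance cue netrin-1, read 17.5 and 1.05 CPM in Peyer's patch against 1.49 and 0.171 CPM in spleen (log2 fold change 3.38, SE 0.48), and it was no longer called without spleen 1 (edgeR adjusted p = 0.114). Pax5, Mef2b and H2-Aa, the others of the 12, are genes of B cells or antigen-presenting cells and are described with the markers of those cells.

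The 12 genes with the largest fall, at the same minimum level, held S100a4, Adam8, Lmna and Nrp1 among others. S100a4, a calcium-binding protein of effector and memory T cells, read 18 and 30.7 CPM in Peyer's patch against 462 and 655 CPM in spleen, a 23.2-fold difference (log2 fold change -4.54, SE 0.32, edgeR adjusted p = 1.76e-04). Adam8, a membrane metalloprotease of leukocytes, read 4.39 and 8.93 CPM in Peyer's patch against 124 and 121 CPM in spleen (log2 fold change -4.24, SE 0.34, edgeR adjusted p = 2.02e-04). Lmna, which encodes the nuclear lamins A and C, read 0.45 and 1.43 CPM in Peyer's patch against 12.1 and 26.9 CPM in spleen (log2 fold change -4.40, SE 0.40, edgeR adjusted p = 5.9e-05). Nrp1, the semaphorin co-receptor neuropilin-1, read 0.843 and 0.075 CPM in Peyer's patch against 36.6 and 12.3 CPM in spleen (log2 fold change -5.57, SE 0.60, edgeR adjusted p = 0.00224). For each of these genes every Peyer's patch library lay below every spleen library, and each stayed called when any one library was left out. Ccrl2, an atypical chemokine receptor, read 0.394 and 0.75 CPM in Peyer's patch against 8.15 and 27.3 CPM in spleen (log2 fold change -4.84, SE 0.58), and Crip2, a LIM-domain protein gene, read 0 and 2.1 CPM in Peyer's patch against 7.08 and 30.3 CPM in spleen (log2 fold change -4.36, SE 0.67). Tppp3, a tubulin polymerisation factor, read 0.45 and 1.35 CPM in Peyer's patch against 13.8 and 49.2 CPM in spleen (log2 fold change -5.04, SE 0.62), and its call was lost without Peyer's patch 1 (edgeR adjusted p = 0.0503) and without Peyer's patch 2 (edgeR adjusted p = 0.0567). Atf3, a stress-induced transcription factor, had 0 counts in Peyer's patch and 347 in spleen, so it was at least 118-fold lower, taking 3 counts over the group as the floor. It read 1.97 CPM in spleen 1 and 26.6 CPM in spleen 2, so this bound rests mostly on spleen 2. Vcl, the gene of the adhesion protein vinculin, read 0.956 and 0.3 CPM in Peyer's patch against 28.4 and 5.74 CPM in spleen (log2 fold change -4.70, SE 0.51). It shares 39.7% of its exon length with Ap3m1 on the opposite strand, a gene with more reads, and the library notes name a non-directional preparation among others, so its value is uncertain. S100a4 shares 60.6% of its exon length with an unnamed gene on the same strand.

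Genes of the Tfh program that passed the test were higher in Peyer's patch. Of 24 Tfh identity genes, 11 were called higher and none lower, against the 5.51% of all genes called higher, and their median log2 fold change was 0.77, against 0.01 over all genes. The gated receptor led them. Cxcr5 (ENSMUSG00000047880, chr9:44423084-44473174 in mm39) read 636 and 633 CPM in Peyer's patch against 124 and 105 CPM in spleen, a 5.55-fold difference (log2 fold change 2.47, SE 0.17, edgeR adjusted p = 1.07e-05). Its tissues did not overlap, and its level was nearly equal in the 2 experiments. PD-1, the other receptor of the gate, is made from Pdcd1, which read 652 and 1292 CPM in Peyer's patch against 374 and 505 CPM in spleen and did not pass (log2 fold change 1.04, SE 0.32, edgeR adjusted p = 0.0742). The gate set no upper limit to either receptor that the labels record.

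Bcl6, the transcription factor that defines the Tfh fate, read 244 and 44.2 CPM in Peyer's patch against 82.8 and 16.6 CPM in spleen (log2 fold change 1.49, SE 0.27, edgeR adjusted p = 0.0111). It was higher in Peyer's patch within each experiment, while the levels of experiment 1 were far above those of experiment 2 in both tissues. Sh2d1a, which encodes the adaptor SAP needed for lasting contact with B cells, read 197 and 679 CPM in Peyer's patch against 61.5 and 201 CPM in spleen (log2 fold change 1.72, SE 0.24, edgeR adjusted p = 0.00114). Cebpa, a transcription factor gene, read 316 and 15 CPM in Peyer's patch against 45.7 and 2.49 CPM in spleen (log2 fold change 2.66, SE 0.26, edgeR adjusted p = 3.53e-04). Pou2af1, a transcriptional coactivator shared by B cells and Tfh cells, read 135 and 91.8 CPM in Peyer's patch against 68.8 and 50.7 CPM in spleen (log2 fold change 0.92, SE 0.14, edgeR adjusted p = 0.00103). The remaining called members were Slamf6 (1.04), Tox2 (1.02), Tcf7 (0.98), Icos (0.82), Il4 (1.42) and Maf (0.59), given as log2 fold changes.

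Il21, the cytokine by which Tfh cells drive germinal-centre B cells, read 249 and 310.3 CPM in Peyer's patch against 186 and 144 CPM in spleen and did not pass (log2 fold change 0.71, SE 0.33, edgeR adjusted p = 0.248). Il4, the other helper cytokine, read 7.31 and 10.8 CPM in Peyer's patch against 3.35 and 3.09 CPM in spleen (log2 fold change 1.42, SE 0.35, edgeR adjusted p = 0.019). The call of Il4 was lost without Peyer's patch 1, Peyer's patch 2 or spleen 2, and its log2 fold change ran from 1.05 to 1.86 over the alternative fits. Tigit, an inhibitory receptor that Tfh cells carry, was called higher as well, with 251 and 261 CPM in Peyer's patch against 77.4 and 122 CPM in spleen (log2 fold change 1.42, SE 0.20, edgeR adjusted p = 0.001). Il6st, the shared signalling chain gp130 of the IL-6 receptor family, read 494 and 92.5 CPM in Peyer's patch against 149 and 28.5 CPM in spleen (log2 fold change 1.71, SE 0.19, edgeR adjusted p = 1.64e-04). S1pr2, the receptor that holds lymphocytes within germinal centres, read 75.3 and 50.6 CPM in Peyer's patch against 28.2 and 20.1 CPM in spleen (log2 fold change 1.37, SE 0.21, edgeR adjusted p = 0.00224).

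This list depended on single libraries. It had 6 called members without Peyer's patch 1, 9 without Peyer's patch 2, 11 without spleen 1, and 4 higher and 1 lower without spleen 2. Bcl6 lost its call without Peyer's patch 1 (edgeR adjusted p = 0.0708) and without spleen 2 (edgeR adjusted p = 0.0647). Without spleen 2 Slamf6 (edgeR adjusted p = 0.0886), Tox2 (edgeR adjusted p = 0.0638), Tcf7 (edgeR adjusted p = 0.225), Icos (edgeR adjusted p = 0.0859), Il4 (edgeR adjusted p = 0.192) and Maf (edgeR adjusted p = 0.208) also missed the threshold. Cxcr5, Sh2d1a, Cebpa and Pou2af1 stayed called in every such fit. Sh2d1a shares 37.8% of its exon length with Tenm1, which had almost no reads.

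**Figure D2:**
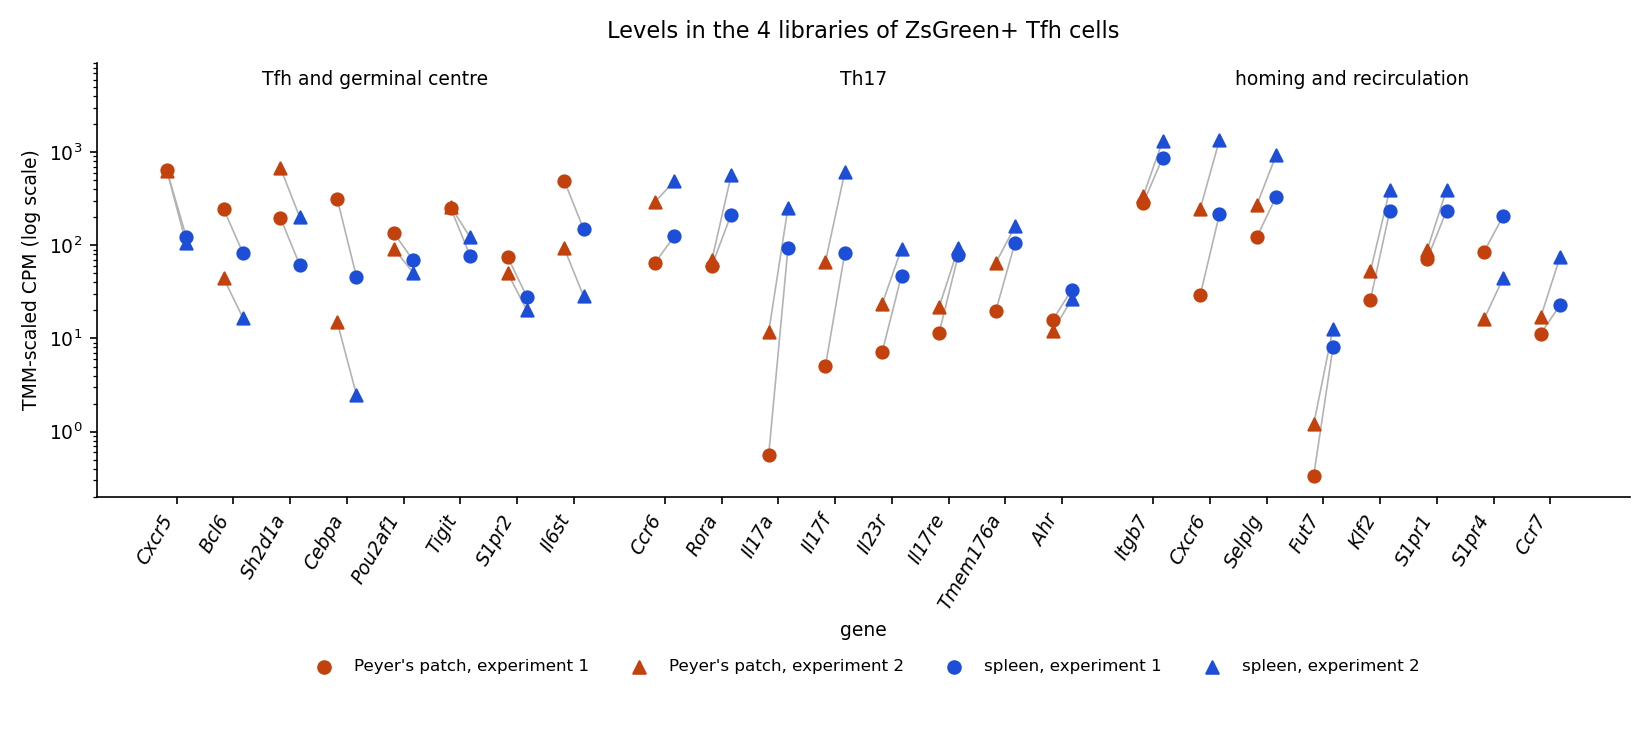
TMM-scaled CPM (log axis) of 24 genes in the 4 ZsGreen+ libraries. Circles are experiment 1 and triangles experiment 2, and grey lines join the tissues of the same experiment. The genes were picked after their values were seen, and Tigit, Il6st and S1pr2 are not of the Tfh identity list. In each of the 8 Tfh and germinal-centre genes shown the lines fall from Peyer's patch to spleen, as for Cxcr5 from 636 to 124 CPM. In the 8 Th17 and 8 homing genes shown they rise, as for Klf2 from 26.1 to 234 CPM. List members that went the other way, such as Batf, Cd200 and Itgal, are not shown, except S1pr2 of the recirculation list. S1pr2 stands here among the Tfh and germinal-centre genes. In the Tfh identity list 3 of 24 genes lay below 0. Above 0 lay 2 of 14 genes in the gut-homing list and 2 of 17 in the recirculation list.

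Most genes of the Th17 program were lower in Peyer's patch, although both groups were sorted for a Th17 past. Of 16 Th17 identity genes, 13 were called lower and none higher, against the 7.17% of all genes called lower, and the median log2 fold change was -2.44. All 16 lay below 0. Rora, a nuclear receptor of Th17 cells, read 60.7 and 69.8 CPM in Peyer's patch against 214 and 566 CPM in spleen (log2 fold change -2.44, SE 0.28, edgeR adjusted p = 0.00142). Ahr, the aryl hydrocarbon receptor that Th17 cells use to make IL-22, read 15.7 and 11.9 CPM in Peyer's patch against 33.3 and 26.4 CPM in spleen (log2 fold change -1.12, SE 0.19, edgeR adjusted p = 0.00223). For both genes no Peyer's patch library reached the spleen levels.

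The effector cytokines Il17f and Il17a were called lower as well. Il17f read 5.06 and 66.8 CPM in Peyer's patch against 81.8 and 606 CPM in spleen, a 12-fold difference (log2 fold change -3.59, SE 0.34, edgeR adjusted p = 0.00127). Il17a read 0.562 and 11.7 CPM in Peyer's patch against 93.1 and 253 CPM in spleen (log2 fold change -5.33, SE 0.70, edgeR adjusted p = 0.019). Both cytokines were lower in Peyer's patch within each experiment, and both had higher levels in experiment 2 than in experiment 1 in each tissue. The call of Il17a was lost without the ZsGreen− spleen library of experiment 1 (edgeR adjusted p = 0.0896) or of experiment 2 (edgeR adjusted p = 0.0915), and with the 4 ZsGreen+ libraries alone (edgeR adjusted p = 0.174). Il22 read 15.3 and 111 CPM in Peyer's patch against 94.4 and 969.98 CPM in spleen and did not pass (log2 fold change -2.86, SE 0.70, edgeR adjusted p = 0.1). Csf2, which encodes the myeloid growth factor GM-CSF, had 1 count in the Peyer's patch libraries together and 688 in spleen, a ratio of 703 (95% interval 126 to 27815) that covers counting error only, and it stayed called in every leave-one-out fit (edgeR adjusted p = 2.69e-05).

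Receptors of the list were lower in part. Il23r, the chain specific to the IL-23 receptor, read 7.2 and 23.5 CPM in Peyer's patch against 47.3 and 92.3 CPM in spleen (log2 fold change -2.34, SE 0.21, edgeR adjusted p = 4.2e-05). Il17re, the receptor chain for IL-17C, read 11.4 and 21.6 CPM in Peyer's patch against 78.6 and 93.4 CPM in spleen (log2 fold change -2.44, SE 0.20, edgeR adjusted p = 2.5e-05). Every Peyer's patch library was below every spleen library for both. Il1r1, the IL-1 receptor, read 346 and 130.1 CPM in Peyer's patch against 355 and 154 CPM in spleen and did not pass (log2 fold change -0.13, SE 0.18, edgeR adjusted p = 0.699). Tmem176a, an intracellular cation channel gene, read 19.7 and 64.7 CPM in Peyer's patch against 107 and 159 CPM in spleen (log2 fold change -1.82, SE 0.29, edgeR adjusted p = 0.00686), and its neighbour Tmem176b read 26.5 and 94.2 CPM in Peyer's patch against 102 and 229 CPM in spleen (log2 fold change -1.56, SE 0.38, edgeR adjusted p = 0.0633), which did not pass. Ccr6, the receptor for the chemokine CCL20, read 65 and 293 CPM in Peyer's patch against 126 and 492 CPM in spleen (log2 fold change -0.85, SE 0.18, edgeR adjusted p = 0.0107), with overlap between the tissues. The called members Ltb4r1 (log2 fold change -3.22), the leukotriene B4 receptor, Cxcl3 (-4.64) and Ccl20 (-3.07), both chemokines, were also called lower.

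Across the leave-one-out fits 10 to 14 of the 16 were called lower and none higher. Ccr6 lost its call without Peyer's patch 1 (edgeR adjusted p = 0.0725), Peyer's patch 2 (edgeR adjusted p = 0.0727) or spleen 1 (edgeR adjusted p = 0.124). Ltb4r1 lost it without spleen 1 (edgeR adjusted p = 0.102) or spleen 2 (edgeR adjusted p = 0.0766), Cxcl3 without spleen 2 (edgeR adjusted p = 0.0577) and in DESeq2 (adjusted p = 0.546), and Ccl20 without any one of the 4 ZsGreen+ libraries (edgeR adjusted p of 0.0505 to 0.41). Csf2 shares 12% of its exon length with an opposite-strand gene that was not in both tables.

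Most receptors that take T cells into the gut were lower, not higher, in the Peyer's patch cells. Among 14 gut-homing receptors and partners, 9 were called lower and 1 higher, against 7.17% and 5.51% of all genes, with a median log2 fold change of -1.19. The integrin α4β7 binds MAdCAM-1 on gut vessels. Itgb7, its β chain, read 286 and 341 CPM in Peyer's patch against 869 and 1329 CPM in spleen (log2 fold change -1.79, SE 0.20, edgeR adjusted p = 1.71e-04), and Itga4, its α chain, read 276 and 59.9 CPM in Peyer's patch against 468 and 90.2 CPM in spleen (log2 fold change -0.68, SE 0.16, edgeR adjusted p = 0.0139). Itgb7 did not overlap between the tissues, whereas Itga4 differed more between the experiments than between the tissues. Ccr9, the receptor for the small intestinal chemokine CCL25, read 4.33 and 23.8 CPM in Peyer's patch against 19.8 and 50.7 CPM in spleen (log2 fold change -1.52, SE 0.36, edgeR adjusted p = 0.0247). Gpr15, a receptor for homing to the colon, was near the limit of detection in Peyer's patch, with 0.787 and 1.5 CPM in Peyer's patch against 3.83 and 10.7 CPM in spleen (log2 fold change -2.58, SE 0.44, edgeR adjusted p = 0.0023). Cxcr6, a receptor of tissue effector T cells, read 29 and 245 CPM in Peyer's patch against 215 and 1350.1 CPM in spleen (log2 fold change -2.64, SE 0.27, edgeR adjusted p = 4.67e-04).

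The selectin ligand and its enzyme moved the same way. Selplg, which encodes PSGL-1, read 123 and 273 CPM in Peyer's patch against 333 and 936 CPM in spleen (log2 fold change -1.63, SE 0.21, edgeR adjusted p = 5.2e-04). Fut7, the fucosyltransferase that makes PSGL-1 bind selectins, read 0.337 and 1.2 CPM in Peyer's patch against 8.04 and 12.8 CPM in spleen (log2 fold change -3.81, SE 0.56, edgeR adjusted p = 0.00111). Itgb1, the integrin β1 chain, read 52.3 and 33.5 CPM in Peyer's patch against 216 and 136 CPM in spleen (log2 fold change -2.04, SE 0.25, edgeR adjusted p = 8.1e-04). Itgae, the αE chain that binds E-cadherin on epithelium, was low in all 4 libraries, with 4.39 and 1.58 CPM in Peyer's patch against 3.94 and 0.771 CPM in spleen, and did not pass (log2 fold change 0.48, SE 0.45, edgeR adjusted p = 0.545). Itgal, the α chain of LFA-1, was the one member called higher, with 1734 and 318 CPM in Peyer's patch against 1045 and 198 CPM in spleen (log2 fold change 0.71, SE 0.18, edgeR adjusted p = 0.0196).

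Calls in this list that were lost in at least 1 fit leaving out a ZsGreen+ library were those of Ccr9, Itga4, Ccr6, Gpr15 and Itgal. Without any one of the 4 ZsGreen+ libraries Itgal was no longer called (edgeR adjusted p of 0.103 to 0.195). Ccr9 and Itga4 were not called without Peyer's patch 1 (edgeR adjusted p = 0.0896 and 0.142), spleen 1 (edgeR adjusted p = 0.123 and 0.112) or spleen 2 (edgeR adjusted p = 0.141 and 0.0672). Gpr15 was not called without spleen 2 (edgeR adjusted p = 0.051). The number called lower fell to 6 without Peyer's patch 1, spleen 1 or spleen 2.

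Most genes of recirculation were lower in Peyer's patch. Klf2 (ENSMUSG00000055148, chr8:73072877-73075500 in mm39) encodes the transcription factor that keeps T cells able to recirculate by switching on the exit receptor S1PR1. It read 26.1 and 52.8 CPM in Peyer's patch against 234 and 395 CPM in spleen, an 8.15-fold difference (log2 fold change -3.03, SE 0.20, edgeR adjusted p = 9.07e-06). S1pr1 read 71.6 and 89.4 CPM in Peyer's patch against 235 and 394 CPM in spleen (log2 fold change -1.93, SE 0.16, edgeR adjusted p = 2.27e-05). Both genes were below the spleen level in every Peyer's patch library and stayed called in every leave-one-out fit. S1pr4, a related receptor, read 85.2 and 16.1 CPM in Peyer's patch against 207 and 44.8 CPM in spleen (log2 fold change -1.38, SE 0.15, edgeR adjusted p = 1.25e-04). Ccr7, which guides T cells to the T zone, read 11.3 and 17 CPM in Peyer's patch against 22.8 and 75.3 CPM in spleen (log2 fold change -1.59, SE 0.25, edgeR adjusted p = 0.00364).

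Of the 17 recirculation and tissue residence genes tested, 10 were called lower and 1, S1pr2, higher, with a median log2 fold change of -1.70. Cd69, a residence marker that holds S1PR1 inside the cell, read 87.4 and 453 CPM in Peyer's patch against 219 and 2844 CPM in spleen and did not pass (log2 fold change -1.90, SE 0.66, edgeR adjusted p = 0.163). Rgs1, a brake on chemokine receptor signalling, was called lower with 60.8 and 256 CPM in Peyer's patch against 167 and 1625 CPM in spleen (log2 fold change -2.07, SE 0.30, edgeR adjusted p = 0.00346), and Prdm1, which encodes BLIMP-1, the antagonist of BCL6, was called lower with 1.24 and 2.1 CPM in Peyer's patch against 9.96 and 10.5 CPM in spleen (log2 fold change -2.63, SE 0.40, edgeR adjusted p = 0.00115). Among 15 genes of naive and central memory cells, 8 were called lower and 3 higher, and 5 of these 15 also stand in the recirculation list. Nsg2 was the clearest of those called higher, with 274 and 85 CPM in Peyer's patch against 134 and 43.3 CPM in spleen (log2 fold change 1.0, SE 0.16, edgeR adjusted p = 0.00149). The number called lower in the naive list was 4 without Peyer's patch 1 and 4 without Peyer's patch 2.

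Of 20 cytokines made by T cells, 9 were called lower and 2, Il16 and Il4, higher, with a median log2 fold change of -1.57. Il2 read 0.0562 and 2.33 CPM in Peyer's patch against 3.62 and 15.9 CPM in spleen (log2 fold change -3.33, SE 0.60, edgeR adjusted p = 0.00364), Ifng, the Th1 cytokine, read 1.12 and 8.1 CPM in Peyer's patch against 19.2 and 52 CPM in spleen (log2 fold change -3.24, SE 0.43, edgeR adjusted p = 0.00504), and Tnf read 26 and 45.6 CPM in Peyer's patch against 96 and 151 CPM in spleen (log2 fold change -1.82, SE 0.24, edgeR adjusted p = 0.00201). In each of these 3 genes every Peyer's patch library lay below every spleen library. Tnfsf11, which encodes RANK ligand, read 131 and 142 CPM in Peyer's patch against 212 and 334 CPM in spleen (log2 fold change -0.96, SE 0.15, edgeR adjusted p = 0.00155). Lta, Ltb, Lif and Tnfsf8 did not pass and had log2 fold changes between -0.10 and 0.24. Il16, a T cell chemoattractant, read 428 and 649.8 CPM in Peyer's patch against 244 and 293 CPM in spleen (log2 fold change 0.97, SE 0.16, edgeR adjusted p = 0.00199), and it lost its call without spleen 2 (edgeR adjusted p = 0.0641).

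Of 23 chemokine receptors and chemokines, 13 were called lower and 1, Cxcr5, higher, with a median of -1.92. Ccr6, Ccr7, Ccr9, Cxcr6, Ccl20 and Cxcl3 among the lower ones, and Cxcr5, were already counted in the lists above. Cxcr3, the receptor of Th1 cells, read 23.6 and 119 CPM in Peyer's patch against 88.5 and 274 CPM in spleen (log2 fold change -1.51, SE 0.22, edgeR adjusted p = 0.00179). Ccl1, the ligand of CCR8, had 0 counts in Peyer's patch and 162 in spleen and so was at least 55.2-fold lower. Ccr4 and Cxcr4 did not pass (log2 fold changes -0.19, SE 0.15 and -0.31, SE 0.57). The number called lower was 7 without Peyer's patch 1, 9 without Peyer's patch 2 and 8 without spleen 1 or spleen 2.

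Of 23 cytokine receptors, 11 were called lower and 1, Il6st, higher, with a median of -0.75. Il18rap, a chain of the IL-18 receptor, read 12.3 and 12.3 CPM in Peyer's patch against 92.9 and 57.8 CPM in spleen (log2 fold change -2.56, SE 0.24, edgeR adjusted p = 8.39e-05), and its partner Il18r1 read 73.1 and 17.8 CPM in Peyer's patch against 232 and 51.8 CPM in spleen (log2 fold change -1.61, SE 0.13, edgeR adjusted p = 2.27e-05). Il1rl1, the IL-33 receptor, had 2 counts in Peyer's patch and 266 in spleen, a ratio of 136 (95% interval 37.3 to 1128) over counting error. Il2ra, which encodes the CD25 that the sort excluded, read 2.31 and 4.8 CPM in Peyer's patch against 20.7 and 13.6 CPM in spleen (log2 fold change -2.27, SE 0.39, edgeR adjusted p = 0.00294). Il7r, the IL-7 receptor of long-lived T cells, read 23.4 and 9.002 CPM in Peyer's patch against 105 and 53.3 CPM in spleen (log2 fold change -2.37, SE 0.31, edgeR adjusted p = 0.00236), and its call was lost without Peyer's patch 1 (edgeR adjusted p = 0.0712) or Peyer's patch 2 (edgeR adjusted p = 0.0535). Il21r, Il27ra and Il6ra did not pass (log2 fold changes 0.15, SE 0.13, -0.12, SE 0.14 and 0.16, SE 0.24). The number called lower was 7 without either Peyer's patch library.

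Of 18 Th1 and cytotoxic genes 9 were called lower and 1, Gzma, higher, with a median of -1.59. Tbx21, the master regulator T-bet, read 1.8 and 6.83 CPM in Peyer's patch against 17.9 and 23.2 CPM in spleen (log2 fold change -2.37, SE 0.38, edgeR adjusted p = 0.00504), and Ctsw, a cathepsin of killer cells, read 6.86 and 31 CPM in Peyer's patch against 29 and 85.1 CPM in spleen (log2 fold change -1.72, SE 0.23, edgeR adjusted p = 9.84e-04). Fasl, the death ligand, read 2.02 and 13.8 CPM in Peyer's patch against 7.08 and 41.9 CPM in spleen (log2 fold change -1.67, SE 0.25, edgeR adjusted p = 0.00104). Gata3, the master regulator of Th2 cells, read 45.5 and 53.1 CPM in Peyer's patch against 95.7 and 98.9 CPM in spleen (log2 fold change -0.98, SE 0.13, edgeR adjusted p = 5.37e-04) and was the clearest of the 3 called lower among 5 Th2 genes, where Il4 was the 1 called higher.

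Regulatory T cell genes were split. Foxp3, the master regulator of regulatory and follicular regulatory T cells, read 0.394 and 0.375 CPM in Peyer's patch against 12.1 and 3.17 CPM in spleen (log2 fold change -4.22, SE 0.44, edgeR adjusted p = 1.01e-04). With Nrp1, Il2ra and Capg (log2 fold change -1.60) it made the 4 of 14 called lower. Izumo1r, the folate receptor 4 of Tfh and regulatory cells, read 262 and 545 CPM in Peyer's patch against 121 and 188 CPM in spleen (log2 fold change 1.32, SE 0.18, edgeR adjusted p = 4.69e-04) and was called higher, as were Ikzf2 (1.65) and Gpr83 (0.88). Ikzf2 lost its call without Peyer's patch 1 (edgeR adjusted p = 0.0866), and Gpr83 without Peyer's patch 2 (edgeR adjusted p = 0.123) or spleen 2 (edgeR adjusted p = 0.159). Foxp3 shares 14.4% of its exon length with Ccdc22 on the opposite strand, a gene of similar read number, so its level is uncertain. The median of the list was -0.08.

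Pathways of the gut environment gave no common direction. Retinoic acid, which the gut makes from vitamin A, acts through receptors of which Rara read 6.52 and 2.7 CPM in Peyer's patch against 24 and 16.5 CPM in spleen (log2 fold change -2.23, SE 0.26, edgeR adjusted p = 2.34e-04) and Rarg read 20.01 and 0.975 CPM in Peyer's patch against 90.3 and 7.54 CPM in spleen (log2 fold change -2.35, SE 0.27, edgeR adjusted p = 2.77e-04). Of the 8 genes of this pathway tested 2 were called lower and 1, Tgm2, higher (log2 fold change 1.47, SE 0.38), and Tgm2 was not called without Peyer's patch 1 (edgeR adjusted p = 0.166), Peyer's patch 2 (edgeR adjusted p = 0.148), spleen 2 (edgeR adjusted p = 0.0945) or either ZsGreen− spleen library (edgeR adjusted p = 0.0547 and 0.0564). Of 12 genes of the aryl hydrocarbon receptor and xenobiotic response 4 were called lower and 2 higher. Tiparp, a direct target of that receptor, read 9.39 and 23.9 CPM in Peyer's patch against 18.2 and 56.5 CPM in spleen (log2 fold change -1.10, SE 0.19, edgeR adjusted p = 0.00255), while Abcb1a, a drug efflux pump induced in gut T cells, read 34.3 and 8.78 CPM in Peyer's patch against 7.45 and 0.943 CPM in spleen (log2 fold change 2.45, SE 0.24, edgeR adjusted p = 7.32e-05). The number called lower in that list was 2 without any one ZsGreen+ library.

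Of 18 TGF-β pathway genes, 4 were called higher and 3 lower, with a median of -0.01. Tgfbr3, the co-receptor betaglycan, read 56.7 and 13 CPM in Peyer's patch against 10.1 and 1.2 CPM in spleen (log2 fold change 2.72, SE 0.23, edgeR adjusted p = 3.13e-05), and Pmepa1 and Ldlrad4, feedback inhibitors of the pathway, read 12.8 and 11.5 CPM in Peyer's patch against 3.09 and 2.4 CPM in spleen (log2 fold change 2.12, SE 0.28, edgeR adjusted p = 4.96e-04) and 55.3 and 61.3 CPM in Peyer's patch against 19.5 and 17.5 CPM in spleen (log2 fold change 1.64, SE 0.18, edgeR adjusted p = 1.58e-04). These 3 were higher in every Peyer's patch library than in any spleen library. Tgfb1, the ligand, read 153 and 37.6 CPM in Peyer's patch against 241 and 88.6 CPM in spleen (log2 fold change -0.93, SE 0.16, edgeR adjusted p = 0.00257), and Smad7, another feedback inhibitor, was called lower (log2 fold change -2.06, SE 0.41) except without Peyer's patch 2 (edgeR adjusted p = 0.0655). The receptors Tgfbr1 and Tgfbr2 and the signal carriers Smad2, Smad3 and Smad4 did not pass.

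Extracellular ATP limits Tfh cells of the Peyer's patch through the channel P2X7. P2rx7 read 433 and 119 CPM in Peyer's patch against 267 and 71.6 CPM in spleen (log2 fold change 0.71, SE 0.14, edgeR adjusted p = 0.00535), and it was not called without Peyer's patch 1 (edgeR adjusted p = 0.0614) or spleen 2 (edgeR adjusted p = 0.0979). Art2b, the ecto-enzyme that can trigger P2X7 through NAD, read 248 and 259 CPM in Peyer's patch against 96.4 and 81.5 CPM in spleen (log2 fold change 1.50, SE 0.16, edgeR adjusted p = 1.1e-04). Of the 11 genes of this list 2 were called higher and 1, Adora2a, lower. The call of Adora2a was lost without Peyer's patch 2, spleen 1 or spleen 2.

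Genes of mitosis were lower in Peyer's patch. All 20 genes of the list were called lower, with log2 fold changes from -2.34 to -1.35 and a median of -1.76. Kif11, the motor that separates spindle poles, read 27.7 and 30.5 CPM in Peyer's patch against 129 and 97.4 CPM in spleen (log2 fold change -1.94, SE 0.18, edgeR adjusted p = 5.59e-05). Ube2c, the ubiquitin-conjugating enzyme of the anaphase-promoting complex, read 14.1 and 124 CPM in Peyer's patch against 87.6 and 543 CPM in spleen (log2 fold change -2.34, SE 0.24, edgeR adjusted p = 3.92e-04). Kif11 did not overlap between the tissues, while Ube2c was higher in Peyer's patch 2 than in spleen 1, and its level differed between experiments in both tissues. Birc5, the survivin subunit of the chromosomal passenger complex, read 18.8 and 197 CPM in Peyer's patch against 73.4 and 539.9 CPM in spleen (log2 fold change -1.67, SE 0.19, edgeR adjusted p = 2.64e-04), and Aurka, a spindle kinase, read 9.61 and 41.2 CPM in Peyer's patch against 39.7 and 124 CPM in spleen (log2 fold change -1.77, SE 0.21, edgeR adjusted p = 3.53e-04). Every one of the 20 was lower within each experiment, with a median difference of -2.20 log2 CPM in experiment 1 and -1.39 in experiment 2.

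The count was 17 to 20 across the leave-one-out fits, and the genes that lost their call were Ccnb1, Cenpf and Hmmr. Without spleen 1 their edgeR adjusted p was 0.201, 0.142 and 0.145, and without spleen 2 it was 0.199, 0.0938 and 0.0522. Ccnb1 and Cenpf were also lost without either ZsGreen− Peyer's patch library (edgeR adjusted p of 0.0652 to 0.105), and Hmmr without Peyer's patch 1 (edgeR adjusted p = 0.209) or Peyer's patch 2 (edgeR adjusted p = 0.0638). Ube2c shares 22.8% of its exon length with a gene on the opposite strand.

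**Figure D3:**
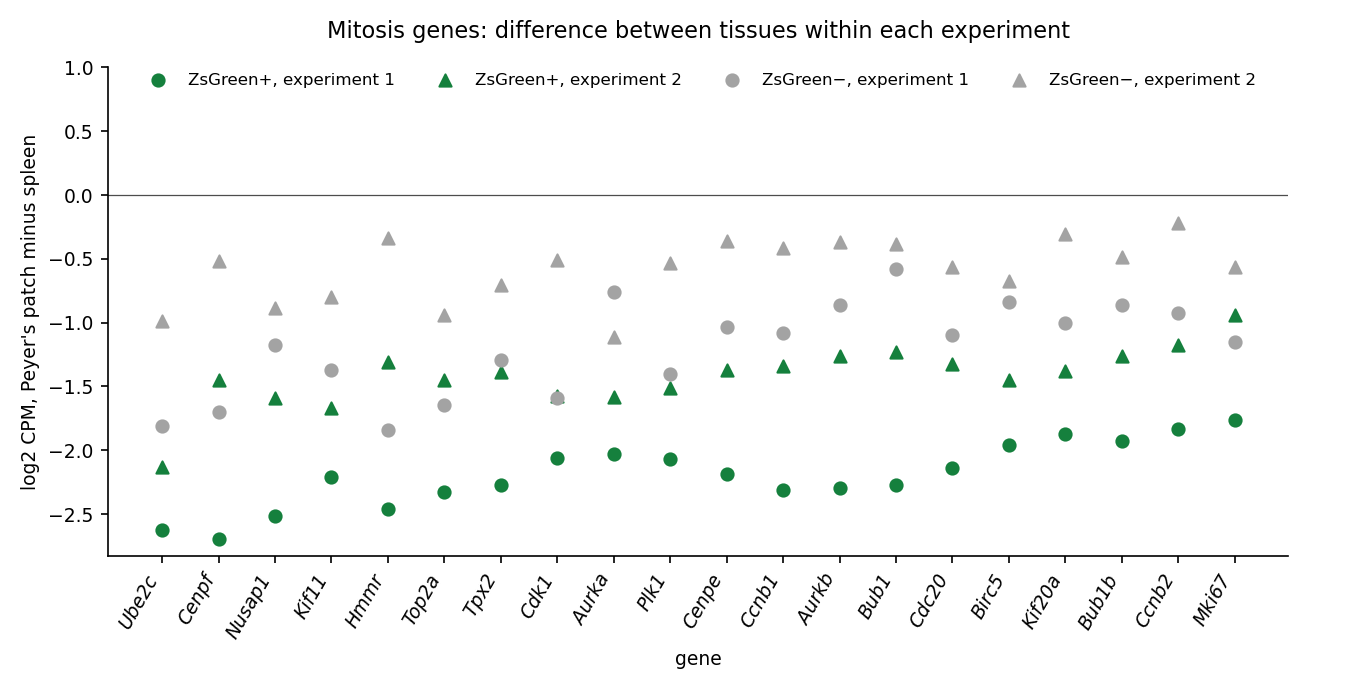
Difference in log2 CPM (prior count 2), Peyer's patch minus spleen, for the 20 mitosis genes within each experiment. Green points are ZsGreen+ and grey points ZsGreen− cells, circles experiment 1 and triangles experiment 2. All 80 points lie below 0. The medians are -2.20 and -1.39 in ZsGreen+ and -1.13 and -0.52 in ZsGreen− cells.

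Promoters of mitosis genes are known for pairing the cell cycle genes homology region (CHR) with CCAAT boxes, and 4 of them are shown because they carry both words. They are the 100 bases before the start site, from RefSeq on GRCm38.p6, a build older than that of the counts. Capitals mark the CHR word TTTGAA and the word CCAAT, on either strand, so that TTCAAA and ATTGG are the same words read on the other strand.
Kif11 (GRCm38.p6 chr19:37376282-37376381, plus strand): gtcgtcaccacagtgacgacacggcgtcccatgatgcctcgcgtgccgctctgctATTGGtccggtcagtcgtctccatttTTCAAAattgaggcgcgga
Cdc20 (GRCm38.p6 chr4:118437344-118437443, minus strand): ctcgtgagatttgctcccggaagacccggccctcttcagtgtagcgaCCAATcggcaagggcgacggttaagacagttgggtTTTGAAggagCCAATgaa
Ube2c (GRCm38.p6 chr2:164769829-164769928, plus strand): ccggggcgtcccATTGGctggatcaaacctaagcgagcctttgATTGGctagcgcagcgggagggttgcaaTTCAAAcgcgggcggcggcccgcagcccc
Cdk1 (GRCm38.p6 chr10:69352913-69353012, minus strand): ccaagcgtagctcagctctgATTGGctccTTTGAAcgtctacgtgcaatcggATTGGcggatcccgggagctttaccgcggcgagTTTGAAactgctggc

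The word TTTGAA stood in 12 of the 17 mitosis promoters with an entry (70.6%), against 12.4% of the 9781 promoters of tested genes, each searched on both strands over 300 bases (250 before and 50 after the start). The word CCAAT stood in 15 of the 17 (88.2%), against 39.5%. The 2 words do not overlap each other. In 17 promoters of the S phase list the shares were 11.8% for TTTGAA and 76.5% for CCAAT. The nuclear receptor half-site AGGTCA stood in 5 of 14 Th17 promoters (35.7%), against 12.2%. The KLF word CCACCC stood in 33.3% of 12 recirculation promoters, against 36.2%, and the AP-1 word TGANTCA in 5% of 20 immediate early promoters, against 4.69%, so neither share stood apart from that of all promoters. These are matches of letters and not sites of binding, and 67.8% of the tested genes had an entry.

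Among S phase genes the calls were also on the lower side. Of 20 genes 8 were called lower and none higher, with a median of -0.38. Rrm2, the regulated subunit of ribonucleotide reductase, read 52.6 and 309 CPM in Peyer's patch against 173 and 677 CPM in spleen (log2 fold change -1.40, SE 0.19, edgeR adjusted p = 6.67e-04). The helicase genes Mcm2, Mcm4, Mcm5, Mcm6 and Mcm7 did not pass, with log2 fold changes from -0.37 to 0.24. The number called was 1 without Peyer's patch 1, 8 without Peyer's patch 2, 4 without spleen 1 and 2 without spleen 2, so this list rests on single libraries, and the difference between the mitosis and S phase lists was not tested.

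Genes induced by T cell receptor signals were mostly below the spleen level, with a wide spread. Of 25 immediate early genes 7 were called lower and none higher, and 23 lay below 0 (median -1.49). Nr4a2, an orphan receptor induced by antigen, read 1.12 and 2.4 CPM in Peyer's patch against 12.2 and 42.1 CPM in spleen (log2 fold change -3.82, SE 0.42, edgeR adjusted p = 4.15e-04), and Fosl2, an AP-1 subunit, read 7.03 and 1.2 CPM in Peyer's patch against 24.5 and 10.03 CPM in spleen (log2 fold change -2.23, SE 0.36, edgeR adjusted p = 0.00174). Junb, an AP-1 subunit as well, read 759 and 1107 CPM in Peyer's patch against 1682 and 7539.7 CPM in spleen and did not pass (log2 fold change -1.83, SE 0.64, edgeR adjusted p = 0.135), and the spleen libraries of experiment 2 stood far above the others in both sorts, with 13171 CPM in ZsGreen− cells. The number called was 15 without either ZsGreen− spleen library, 3 without spleen 2 and 4 without spleen 1. Heat shock genes, which tissue handling can induce, had 1 of 11 called lower (Hsph1, log2 fold change -0.52, SE 0.13). No heat shock gene was called without Peyer's patch 1 or Peyer's patch 2, and 6 were called lower without either ZsGreen− spleen library. Hspa1a read 63.8 and 43.7 CPM in Peyer's patch against 399 and 195 CPM in spleen and did not pass (log2 fold change -2.45, SE 0.54, edgeR adjusted p = 0.066). The part of tissue handling in the comparison was not tested.

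Among 21 interferon-stimulated genes 7 were called lower and none higher (median -0.69). Oasl2 read 1.63 and 3.68 CPM in Peyer's patch against 8.68 and 10.9 CPM in spleen (log2 fold change -1.97, SE 0.30, edgeR adjusted p = 0.00113). Irf7 and Isg15 did not pass (log2 fold changes -0.23, SE 0.14 and 0.60, SE 0.20). The number called was 1 without Peyer's patch 1 and 4 without spleen 1. Of 19 genes of glycolysis and hypoxia 5 were called higher and 2 lower (median 0.16). Egln3, an oxygen sensor, read 146 and 113 CPM in Peyer's patch against 40.3 and 43.2 CPM in spleen (log2 fold change 1.63, SE 0.16, edgeR adjusted p = 7.38e-05), and Tpi1 and Pfkl, enzymes of glycolysis, had log2 fold changes of 0.87, SE 0.15 and 0.80, SE 0.13. The glucose transporter Slc2a3 went the other way, with 19.2 and 11.5 CPM in Peyer's patch against 68.1 and 36.8 CPM in spleen (log2 fold change -1.76, SE 0.16, edgeR adjusted p = 4.17e-05). Of 20 cholesterol synthesis genes 3 were called lower. The number was 1 without Peyer's patch 1, spleen 1 or spleen 2.

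**Figure D4:**
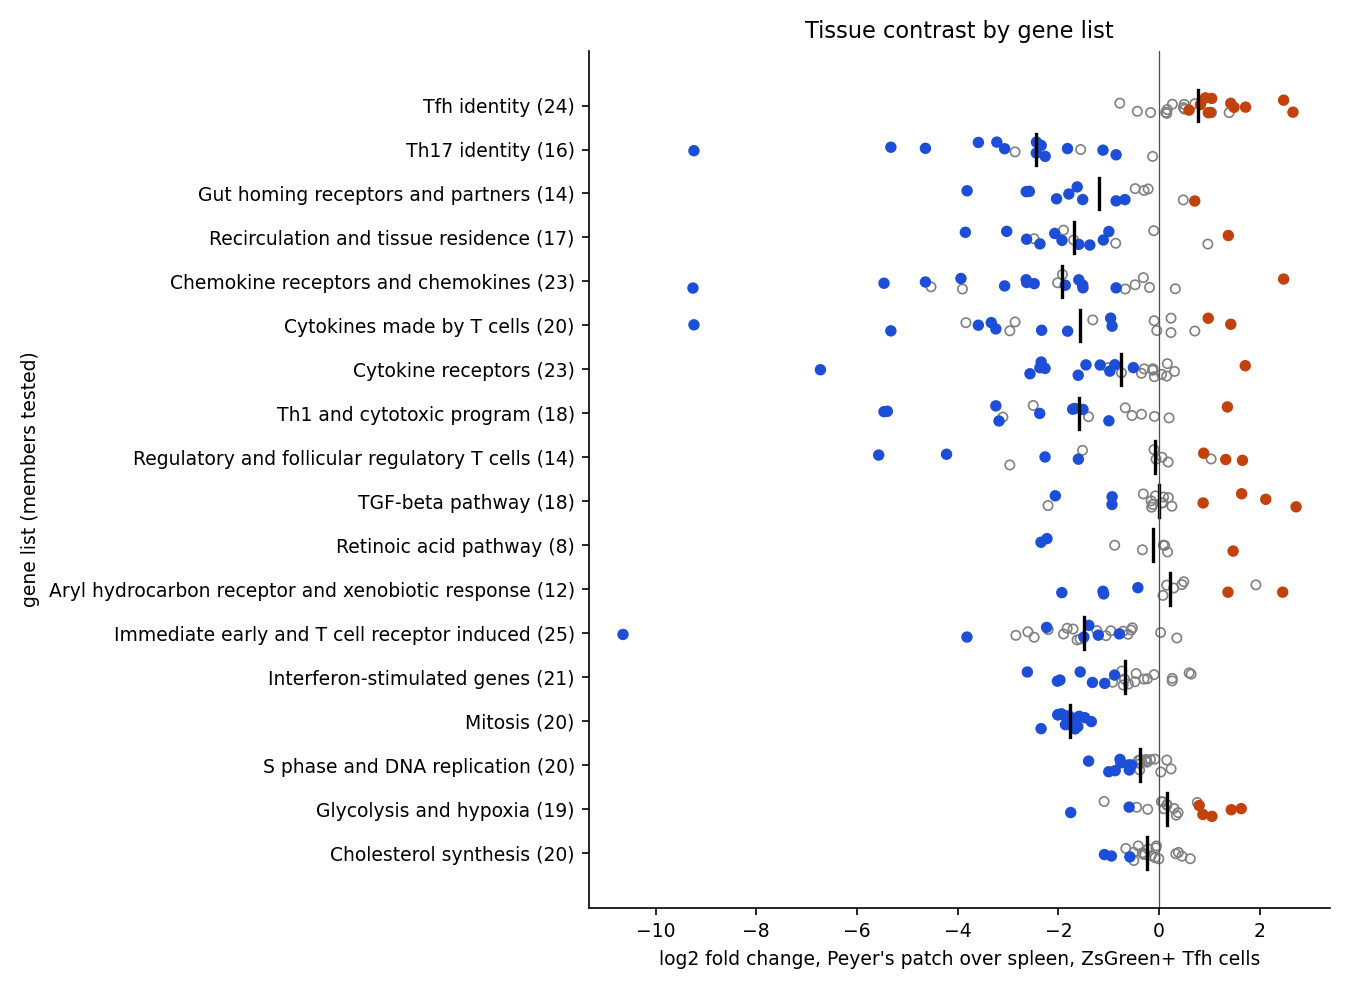
Fitted log2 fold change of Peyer's patch over spleen in ZsGreen+ Tfh cells for the members of 18 gene lists. Each point is a gene, filled where it passed an edgeR adjusted p of 0.05 (orange higher, blue lower) and open where it did not, and the black bar is the median of the list. The medians run from -2.44 (Th17 identity) to 0.77 (Tfh identity), and the mitosis list is the one in which every point is filled.

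Transcripts of other cells were traced with marker lists, since a sorted sample can hold them. B cell markers that passed the test were higher in Peyer's patch. The sum over 15 detected markers was 353 and 563 CPM in Peyer's patch against 132 and 178 CPM in spleen, most of it from Ighm, which read 257 and 534 CPM in Peyer's patch against 125 and 169.6 CPM in spleen. Of 13 tested 5 were called higher, against 5.51% of all genes, and all 13 lay above 0 (median 2.60). Pax5, the B cell identity factor, read 37 and 1.8 CPM in Peyer's patch against 1.28 and 0.0857 CPM in spleen (log2 fold change 4.62, SE 0.44, edgeR adjusted p = 5.55e-05). Mef2b, a factor of germinal-centre B cells that Tfh cells can also express, read 9.05 and 18.5 CPM in Peyer's patch against 0.586 and 2.14 CPM in spleen (log2 fold change 3.48, SE 0.41, edgeR adjusted p = 2.64e-04), and Cd22 read 14.4 and 4.13 CPM in Peyer's patch against 2.08 and 0.943 CPM in spleen (log2 fold change 2.57, SE 0.32, edgeR adjusted p = 3.02e-04). The defining gene Fcer2a was at 0 in Peyer's patch 2 and in spleen 2, and Ms4a1 read 4.33 and 0.45 CPM in Peyer's patch against 0.479 and 0.343 CPM in spleen. The number called was 3 without Peyer's patch 1 or either ZsGreen− Peyer's patch library, and Ighm missed the threshold without Peyer's patch 1 (edgeR adjusted p = 0.139), Peyer's patch 2 (edgeR adjusted p = 0.0835) and spleen 2 (edgeR adjusted p = 0.0717). Pou2af1 of the Tfh list is shared with B cells, and the part of B cell RNA was not tested for it or for any other gene reported with the Tfh program.

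Epithelial markers were near 0. Their sum over 12 detected markers was 23.4 and 28.1 CPM in Peyer's patch against 8.09 and 11.7 CPM in spleen, and 7 of the 11 tested had 0 counts in both spleen libraries. The Paneth cell lysozyme Lyz1 had 99 counts in Peyer's patch and was at least 32.3-fold higher, and the enterocyte gene Fabp2 had 73 counts and was at least 23.8-fold higher. Of the 11 tested 4 were called higher, and 2 were called without Peyer's patch 1 or spleen 1. Their median log2 fold change was 6.07, or 2.71 with genes at 0 set to their bound.

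Markers of myeloid cells summed to 121 and 164 CPM in Peyer's patch and 119.6 and 201 CPM in spleen, and of 11 tested 3 were called higher and 2 lower. Their log2 fold changes ran from -3.25 to 4.17, with 6 above 0 and 5 below. Cst3 was among those called lower (edgeR adjusted p = 0.0483), with log2 fold changes from -0.93 to -0.47 over the alternative fits. The call of Cst3 was lost with upper quartile scaling and with a minimum count of 50. Lyz2 read 26.8 and 16.7 CPM in Peyer's patch against 7.61 and 4.03 CPM in spleen (log2 fold change 1.89, SE 0.29, edgeR adjusted p = 0.00122), and H2-Aa, an MHC class II gene, read 19.7 and 3.38 CPM in Peyer's patch against 1.97 and 0.771 CPM in spleen (log2 fold change 2.89, SE 0.68, edgeR adjusted p = 0.031) and lost its call without any one ZsGreen+ library (edgeR adjusted p of 0.0664 to 0.317). Plasma cell markers summed to 296 and 295.6 CPM against 192 and 352 CPM, with 1 of 10 called lower, Prdm1, and none higher. Igha, the IgA heavy chain gene, read 105 and 61.5 CPM in Peyer's patch against 7.72 and 0.857 CPM in spleen and did not pass (log2 fold change 4.83, SE 0.99, edgeR adjusted p = 0.0751). Of the CD8 T and NK cell list 3 genes were tested, and Klrb1c read 43.7 and 59.6 CPM in Peyer's patch against 15.8 and 23.5 CPM in spleen (log2 fold change 1.40, SE 0.16, edgeR adjusted p = 1.68e-04).

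Markers of γδ T cells and innate lymphoid cells had 4 of 10 called lower and 1, Kit, higher. Their sum of 132 and 387 CPM in Peyer's patch and 525 and 1544 CPM in spleen was in part Id2, which T cells also express, while Trdc, the δ chain constant gene, read 2.7 and 5.78 CPM in Peyer's patch against 4.58 and 13.1 CPM in spleen and did not pass (log2 fold change -0.99, SE 0.51, edgeR adjusted p = 0.293). Blk, a kinase gene of B cells and of γδ T cells that make IL-17, was among those called lower, with 2.31 and 5.1 CPM in Peyer's patch against 14.3 and 12.9 CPM in spleen (log2 fold change -1.93, SE 0.44, edgeR adjusted p = 0.0145). Its call was lost without Peyer's patch 1, spleen 1 or spleen 2, and its log2 fold change ran from -2.7 to -1.3 over the alternative fits. The sort took TCRβ+ cells, and the part of RNA from γδ T cells and innate lymphoid cells in these libraries was not tested. Cd4 itself was present in every library, with 1147 and 673 CPM in Peyer's patch against 1301 and 682 CPM in spleen (log2 fold change -0.10, SE 0.19, edgeR adjusted p = 0.784).

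The tissue contrast was then set beside that of ZsGreen− Tfh cells, which share no library with it. In those cells 792 genes (5.49%) were called, 262 higher and 530 lower in Peyer's patch. Of the genes called higher in ZsGreen+ cells 188 were also higher in ZsGreen− cells (23.7% of the former and 71.8% of the latter), and 365 were lower in both (35.3% and 68.9%). Of the 1828 genes called in ZsGreen+ cells 91.8% had the same direction in ZsGreen− cells, and 1577 had the larger absolute log2 fold change in ZsGreen+ cells. Genes were selected here by their ZsGreen+ contrast, which favours a larger value there.

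The recirculation genes were lower in both. Klf2 had log2 fold changes of -3.03, SE 0.20 in ZsGreen+ and -3.32, SE 0.20 in ZsGreen− cells, and S1pr1 had -1.93, SE 0.16 and -1.92, SE 0.16. S100a4 read 7.13 and 4.1 CPM in Peyer's patch against 120.3 and 172 CPM in spleen in ZsGreen− cells (log2 fold change -4.56, SE 0.34), and Lmna and Adam8 had -4.92, SE 0.41 and -3.20, SE 0.51. The test of the difference between sorts gave none of these 5 genes an adjusted p under 0.05 in edgeR, which does not show that they were equal.

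Cxcr5 and Il17f had smaller contrasts in ZsGreen− cells, but the difference between the sorts did not pass for them. Cxcr5 had a log2 fold change of 2.47 in ZsGreen+ and 1.08 in ZsGreen− cells, a difference of 1.39, SE 0.23, edgeR adjusted p = 0.0578. Il17f had log2 fold changes of -3.59 and -0.91 (difference -2.68, SE 0.57, edgeR adjusted p = 0.228). Of the 20 mitosis genes 8 were called lower in ZsGreen− cells, with a median of -0.91, and none of the 20 passed the test of the difference. Of 18 Th1 and cytotoxic genes 10 were called lower there and none higher, with a median of -2.22, against -1.59 in ZsGreen+ cells.

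The difference between the sorts was called for 14 genes, 0.0971% of those tested, and 1223 had an unadjusted p under 0.05. The libraries of experiment 1 differed between the sorts in Y-linked RNA. Ddx3y, a Y-linked helicase gene, read 18.9 and 31.1 CPM in Peyer's patch against 19.9 and 36.6 CPM in spleen in ZsGreen+ cells and 2.45 and 34.7 CPM in Peyer's patch against 0 and 20.1 CPM in spleen in ZsGreen− cells, and all 4 Y-linked genes examined were at 0 in ZsGreen− spleen 1. Xist was present in all 8 libraries, and the part of this difference in the test between sorts was not tested. Among the 14 called genes, 4 had the higher and 10 the lower contrast in ZsGreen+ cells. Il17re, of the Th17 list, read 2.61 and 2.66 CPM in Peyer's patch against 1.71 and 2.61 CPM in spleen in ZsGreen− cells. Its log2 fold change was 0.37 there against -2.44 in ZsGreen+ cells (difference -2.81, SE 0.36, edgeR adjusted p = 0.0172). Furin (ENSMUSG00000030530, chr7:80038333-80055184 in mm39), a protease that activates TGF-β and other proproteins, read 195 and 66.3 CPM in Peyer's patch against 671 and 322 CPM in spleen in ZsGreen+ cells (log2 fold change -2.05, SE 0.19, edgeR adjusted p = 6.81e-05). In ZsGreen− cells Furin read 137 and 35 CPM in Peyer's patch against 98.9 and 31.4 CPM in spleen, and the difference was -2.38, SE 0.27, edgeR adjusted p = 0.0155. Its ZsGreen+ spleen libraries stood above the other groups of their experiment. Rbpj, the transcription factor of Notch signalling, read 39.4 and 13.2 CPM in Peyer's patch against 159 and 42.6 CPM in spleen in ZsGreen+ and 35.4 and 11 CPM in Peyer's patch against 40.4 and 13.9 CPM in spleen in ZsGreen− cells (difference -1.61, SE 0.22, edgeR adjusted p = 0.0181). Without ZsGreen− Peyer's patch 1 the differences of Il17re, Furin and Rbpj were not called (edgeR adjusted p = 0.258, 0.1 and 0.203), nor were those of Furin and Rbpj without ZsGreen+ Peyer's patch 1 (edgeR adjusted p = 0.0611 and 0.121).

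Tgfbr3 went the other way, with a higher contrast in ZsGreen+ cells. It read 63.2 and 16.1 CPM in Peyer's patch against 41 and 9.35 CPM in spleen in ZsGreen− cells. Its log2 fold change was 0.70 there against 2.72 in ZsGreen+ cells (difference 2.02, SE 0.31, edgeR adjusted p = 0.0338). Itgb1 was lower in Peyer's patch in both sorts, with 52.3 and 33.5 CPM in Peyer's patch against 216 and 136 CPM in spleen in ZsGreen+ and 53 and 27.3 CPM in Peyer's patch against 892 and 1031 CPM in spleen in ZsGreen− cells, and its contrast was the smaller one in ZsGreen+ cells (difference 2.63, SE 0.35, edgeR adjusted p = 0.0338). Itm2a, a membrane protein gene of T cells, had 0.63 and -1.23 (difference 1.86, SE 0.25, edgeR adjusted p = 0.018). Without ZsGreen− Peyer's patch 1 these calls were lost (edgeR adjusted p = 0.395, 0.1 and 0.1), as they were without ZsGreen+ Peyer's patch 1 (edgeR adjusted p = 0.133, 0.178 and 0.0611) and ZsGreen− Peyer's patch 2 (edgeR adjusted p = 0.123 for each).

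**Figure D5:**
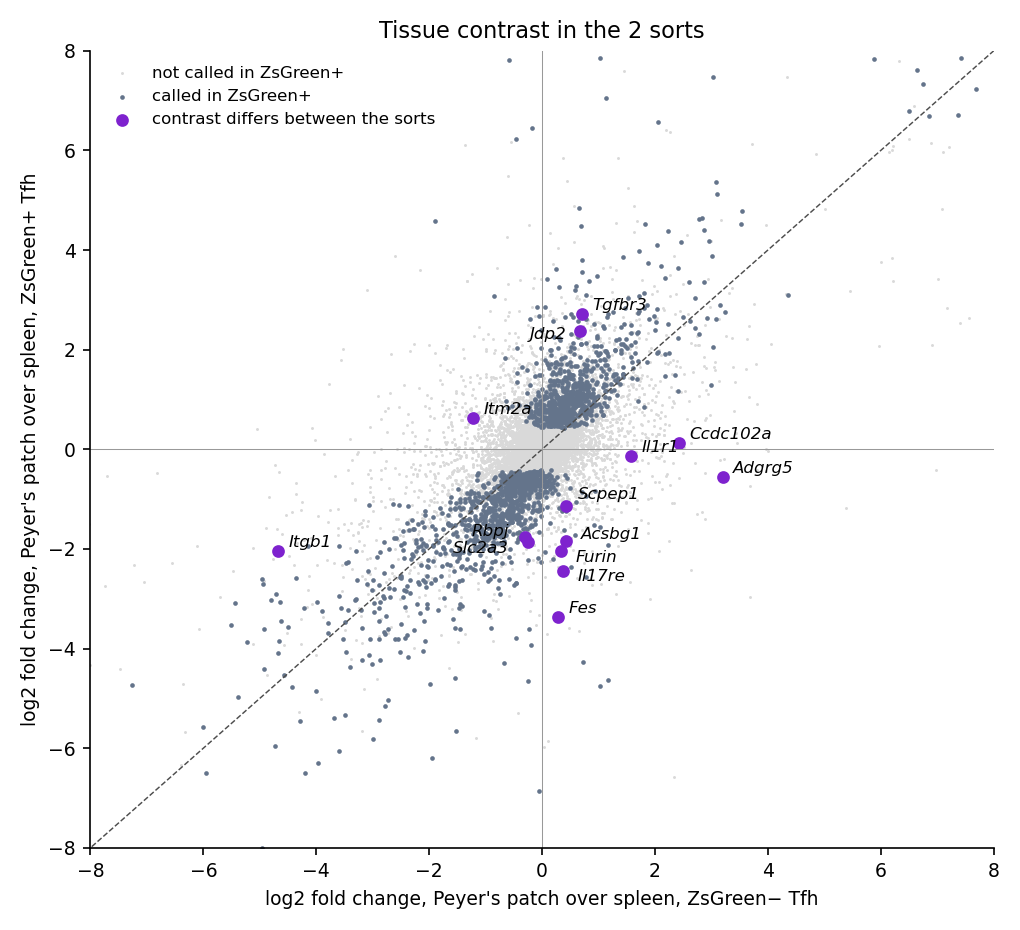
Fitted log2 fold change of Peyer's patch over spleen in ZsGreen− cells (x axis) against ZsGreen+ cells (y axis), which share no library. Each point is a gene, slate points are called in ZsGreen+ cells, the 14 purple points are called in the test between sorts, and 18 genes beyond 8 on either axis lie outside the plot. The genes of the difference test, such as Il17re and Furin below the diagonal and Tgfbr3 above it, lie away from the line of equality.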

How the data were processed

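RNA from sorted T follicular helper cells was sequenced in 8 libraries, 2 for each of 2 tissues and 2 sorts. The authors deposited, for each of 2 experiments, estimated counts per gene (expected counts, not whole in 17.6% to 29.9% of values) and a normalized signal that is the count divided by 1 factor per library; per the submitters' processing notes the tools were Partek, STAR and DESeq2 and the build was mm39, with no versions. The labels' protocols offer a choice of library kits, one selecting poly A RNA and one, for very little input, not directional, and do not say which library had which, so genes that overlap on opposite strands may share reads. The deposited counts were rounded and joined by gene identifier (16735 genes in both of the tables of 18114 and 20397).

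With edgeR 4.0.16 (limma 3.58.1, DESeq2 1.42.0 and R 4.3.3), genes were filtered with filterByExpr (minimum count 10, minimum total 15; 14418 kept, 2317 removed), scaled by TMM and fitted by robust quasi-likelihood over all 8 libraries with group and experiment as terms, leaving 3 residual degrees of freedom. All p-values were adjusted by Benjamini-Hochberg over all genes tested, at 0.05. Experiment entered as a block because the labels tie each replicate number to an experiment, and same-numbered libraries deviated together (r from 0.825 to 0.867 over 6 pairs of groups). Fold changes are fitted log2 values, and per-experiment differences use log2 CPM with a prior count of 2. The edgeR fit of the ZsGreen+ contrast was tried on simulated counts that scattered less than the data, and the other steps had no such test. Intervals for low counts are 95% and cover counting error only.

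The genes, lists and comparisons were chosen with earlier results of these data known. Genes were named as stated in the report, with a fixed set of sort and tissue genes and up to 6 genes at each end of the test between sorts. In that rule immunoglobulin, T cell receptor, sex-linked, mitochondrial and predicted genes were left out. Of 456 symbols in 31 lists 413 were in both tables and 403 were tested. Alternatives were other scalings (RLE, upper quartile), DESeq2, limma-voom, no count filter, a minimum count of 50, no block, each library left out, the 4 ZsGreen+ libraries alone, limma on log2 of the authors' signal plus 1, and no immunoglobulin genes. Some genes that the rule names are not reported here. Promoters are from RefSeq on GRCm38.p6. No genome of the build mm39 was used here.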

Additional observations from a re-analysis of the deposited data

Results flagged for a closer look

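For 14 genes the contrast of Peyer's patch over spleen differed between the ZsGreen+ and ZsGreen− cells, by an interaction test in edgeR at an adjusted p under 0.05. Each value below is the ZsGreen+ log2 fold change minus the ZsGreen− log2 fold change. Of the 14, 13 lost the call in 2 to 6 of the 8 fits that each leave out 1 library. No technical or biological account of any of them was tested.

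Adgrg5, an adhesion G protein-coupled receptor, kept its call in all 8 fits. It read 18.8 and 22.4 CPM in Peyer's patch against 31.2 and 29.1 CPM in spleen in ZsGreen+ cells and 22.2 and 27.9 CPM in Peyer's patch against 3.05 and 1.99 CPM in spleen in ZsGreen− cells, so the ZsGreen− spleen libraries stood apart, and its difference was -3.757 (edgeR adjusted p = 0.00145). Ccdc102a read 14.9 and 13 CPM in Peyer's patch against 13.2 and 12.3 CPM in spleen in ZsGreen+ cells, between the tissues of ZsGreen− cells with 25.2 and 23.2 CPM in Peyer's patch against 4.92 and 3.99 CPM in spleen, and had a difference of -2.294 (edgeR adjusted p = 0.0172, and 0.161 without ZsGreen− Peyer's patch 1). Il1r1, the IL-1 receptor of the Th17 list, read 172 and 106 CPM in Peyer's patch against 59 and 35.1 CPM in spleen in ZsGreen− cells, where it was called higher in Peyer's patch (edgeR adjusted p = 5.34e-04), and its difference was -1.711 (edgeR adjusted p = 0.0338, and 0.151 without ZsGreen− Peyer's patch 2).

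In 7 genes the ZsGreen+ spleen libraries were the high ones within each experiment. Furin and Fes, a tyrosine kinase gene, lie side by side on chromosome 7 (80038333 to 80055184 and 80027504 to 80037694 in mm39, minus strand) and differed by -2.385 (edgeR adjusted p = 0.0155) and -3.653 (edgeR adjusted p = 0.0335). Fes read 4.22 and 1.58 CPM in Peyer's patch against 35.8 and 21.1 CPM in spleen in ZsGreen+ cells and 2.34 and 0.554 CPM in Peyer's patch against 1.44 and 1.07 CPM in spleen in ZsGreen− cells, and it lost its call in 6 fits, with 0.662 as the highest edgeR adjusted p (without ZsGreen− Peyer's patch 1). Furin reached 0.1 there. Acsbg1, an acyl-CoA synthetase, differed by -2.26 (edgeR adjusted p = 0.0172, and 0.1 without ZsGreen− Peyer's patch 1), and Il17re by -2.813 (edgeR adjusted p = 0.0172, and 0.258 without it). Rbpj differed by -1.611 (edgeR adjusted p = 0.0181), Scpep1, a serine carboxypeptidase, by -1.548 (edgeR adjusted p = 0.0338), and the glucose transporter Slc2a3 by -1.46 (edgeR adjusted p = 0.0338). Without ZsGreen− Peyer's patch 1 their edgeR adjusted p was 0.203, 0.258 and 0.236.

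The remaining 4 genes had positive differences. Tgfbr3 differed by 2.018 (edgeR adjusted p = 0.0338, and 0.395 without ZsGreen− Peyer's patch 1). Jdp2, an AP-1 family repressor, read 29.9 and 34.5 CPM in Peyer's patch against 5.38 and 7.11 CPM in spleen in ZsGreen+ and 26.3 and 38.3 CPM in Peyer's patch against 16.3 and 24.5 CPM in spleen in ZsGreen− cells, and differed by 1.708 (edgeR adjusted p = 0.0338, and 0.277 without the same library). Itm2a read 9.33 and 28.8 CPM in Peyer's patch against 5.11 and 21.2 CPM in spleen in ZsGreen+ and 14.1 and 40.5 CPM in Peyer's patch against 31.9 and 98.6 CPM in spleen in ZsGreen− cells, with opposite directions and a difference of 1.856 (edgeR adjusted p = 0.018, and 0.123 without ZsGreen− Peyer's patch 2). Itgb1 differed by 2.633 (edgeR adjusted p = 0.0338, and 0.178 without ZsGreen+ Peyer's patch 1).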

How the results depend on the processing

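The ZsGreen+ tissue contrast gave 726 to 1161 genes higher and 935 to 1337 lower over RLE and upper quartile scaling, DESeq2, limma-voom, no count filter, a minimum count of 50, the 4 libraries alone, the authors' signal and no immunoglobulin genes, within 1.5 times the 794 and 1034 reported. Without the experiment as a block, which removes the pairing of libraries, edgeR called 0 genes in either direction in the ZsGreen+ contrast, the ZsGreen− contrast and the test between sorts, with 568, 369 and 79 at an unadjusted p under 0.05. Leaving out 1 library gave 305 to 821 higher and 558 to 1144 lower in ZsGreen+ cells, and 791 of the 1828 genes remained called without Peyer's patch 1. The same fits gave 99 to 306 higher and 212 to 587 lower in ZsGreen− cells, against 262 and 530. The test between sorts, with 4 and 10, gave 59 and 85 in DESeq2, 11 and 19 in limma-voom, 24 and 23 without a count filter, and 0 to 71 and 2 to 59 on leaving out 1 library. The 4-library and signal fits give no value for the ZsGreen− contrast or the test between sorts.

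For single genes 2138 of the alternative values stayed on the same side of the threshold in the same direction, 294 lost the call (134 of them without the block), 7 gained it, and 1 turned, that of Cd4, which was not called and ran from -0.26 to 0.044 on leaving out 1 library. The cause of these shifts was not tested. With 2 libraries a group and 3 residual degrees of freedom, differences in genes of few counts have wide errors.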

Other observations

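Some gene families were examined after the values were seen, so their counts are descriptions, to be set against the 5.51% of all genes called higher and the 7.17% called lower. The transgenic T cell receptor of K/BxN mice uses an α chain of the Trav6 family and a β chain with Trbv19. The segment Trav6d-4 read 67.3 and 688 CPM in Peyer's patch against 293 and 2629 CPM in spleen (log2 fold change -2.03, SE 0.28, edgeR adjusted p = 8.24e-04). It was lower in ZsGreen− Peyer's patch cells as well, with 63.7 and 485 CPM in Peyer's patch against 188 and 3478 CPM in spleen (log2 fold change -2.24, SE 0.29, edgeR adjusted p = 0.00107), and stayed called in each fit that left out 1 library. Trbv19 read 917 and 2306 CPM in Peyer's patch against 939.96 and 2522 CPM in spleen in ZsGreen+ cells and did not pass (log2 fold change -0.07, SE 0.35, edgeR adjusted p = 0.924). Of the 96 α variable segments tested 2 were called lower and 1 higher, and of 20 β variable segments 1 was called higher. Trav6 segments are near-identical copies, so reads could be split among them, and why the segments differ was not tested.

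Of 7 S100 genes, which encode calcium-binding proteins, 4 were called lower, among them S100a6 with 32.6 and 92.5 CPM in Peyer's patch against 272 and 520.05 CPM in spleen (log2 fold change -2.78, SE 0.17, edgeR adjusted p = 7.05e-06) and S100a10 with 198 and 480.2 CPM in Peyer's patch against 582 and 1564 CPM in spleen (log2 fold change -1.63, SE 0.19, edgeR adjusted p = 2.48e-04). Of 7 galectin genes 4 were called lower, led by Lgals1, a galectin secreted by activated T cells, with 102 and 243 CPM in Peyer's patch against 639 and 1603 CPM in spleen (log2 fold change -2.69, SE 0.21, edgeR adjusted p = 2.27e-05). Of 9 annexin genes 3 were called lower and 1 higher, and Anxa2 read 28 and 144 CPM in Peyer's patch against 213 and 847 CPM in spleen (log2 fold change -2.71, SE 0.27, edgeR adjusted p = 3.62e-04) and Anxa6 87.1 and 140.2 CPM in Peyer's patch against 447 and 593 CPM in spleen (log2 fold change -2.21, SE 0.19, edgeR adjusted p = 3.13e-05). In ZsGreen− cells S100a6 (-2.70), Lgals1 (-1.96) and Anxa2 (-2.89) had log2 fold changes of the same sign.

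Of 25 kinesin genes 11 (44%) were called lower and 1 higher, with Kif11 and Kif20a of the mitosis list among the lower ones. Of 51 genes of the H1 to H4 histone families 8 (15.7%) were called lower and none higher (median log2 fold change -1.28), and the linker histone gene H1f2 read 3.71 and 15.1 CPM in Peyer's patch against 47.7 and 109 CPM in spleen (log2 fold change -3.18, SE 0.24, edgeR adjusted p = 2.3e-05). Of 334 zinc finger genes of the Zfp series 19 were called higher (5.69%, near the share of all genes) and 2 lower (0.599%), and 258 lay above 0. Zfp704 was among the higher ones with 28.1 and 4.05 CPM in Peyer's patch against 4.37 and 0.857 CPM in spleen (log2 fold change 2.51, SE 0.33, edgeR adjusted p = 4.32e-04). None of 87 genes of cytosolic ribosomal proteins was called in edgeR. Of 1039 processed pseudogenes 38 were called lower (3.66%) and 4 higher (0.385%), and of 920 long non-coding RNA genes 19 were called lower (2.07%) and 39 higher (4.24%), all below the shares of all genes.

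Xist, the RNA that silences an X chromosome in females, read 1389 and 146 CPM in Peyer's patch against 801 and 87.8 CPM in spleen (log2 fold change 0.77, SE 0.17, edgeR adjusted p = 0.0113), and its call was lost without Peyer's patch 1 (edgeR adjusted p = 0.128), spleen 1 (edgeR adjusted p = 0.0749) or spleen 2 (edgeR adjusted p = 0.165). It overlaps Tsix on the opposite strand. The 4 Y-linked genes tested did not pass, and every ZsGreen+ library held both Xist and Y-linked RNA. The receptor gene Tnfrsf9, which encodes 4-1BB, was lower with 23.9 and 62.6 CPM in Peyer's patch against 74.8 and 189 CPM in spleen (log2 fold change -1.62, SE 0.13, edgeR adjusted p = 2.27e-05).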
